A study of Mus musculus with 9 samples.

Results

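Ribosome biogenesis factors are the proteins that transcribe, modify, cut and assemble ribosomal RNA before a ribosome leaves the nucleus. A set of 34 of them was followed in RAW 264.7 cells, a mouse macrophage-like line, by taking every gene of the deposited count table whose symbol was on the list, and all 34 were found among the 51826 genes counted. Poly(A)-selected RNA had been sequenced from 3 groups of 3 libraries, which the labels number as biological replicates. Vehicle cells received solvent, LPS cells received lipopolysaccharide (a bacterial cell wall component) at 300 ng/mL for 6 h, and calycosin plus LPS cells received calycosin (a plant isoflavone) at 100 µg/mL for 24 h and then the same LPS. No library had calycosin without LPS, and all groups are 1 transformed cell line, so neither resting cells under calycosin nor primary macrophages were measured. The series set out to study the anti-inflammatory action of calycosin.

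RNA polymerase I makes a long ribosomal RNA precursor in the nucleolus, and small nucleolar ribonucleoproteins (snoRNPs) modify it, the box C/D class by methylation of ribose and the box H/ACA class by pseudouridylation. A large complex, the small subunit processome, folds and cuts the part that becomes the 40S subunit, while other factors build the 60S subunit. The pathway tracks growth in most cells, and the transcription factor MYC is known to drive many of its genes.

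Total counts ran from 27784737 to 38524105 per library. Levels within a gene are given in CPM, counts scaled to libraries of equal effective size by TMM (trimmed mean of M values, which sets libraries level by genes that vary little), and the scaling factors ran from 0.786 to 1.42. Mitochondrial transcripts took 3.79% and 3.68% of the counts in vehicle replicates 1 and 2 but 21.9% in vehicle replicate 3, 13.0 to 14.7% in the LPS libraries, 17.2% and 19.4% in calycosin plus LPS replicates 1 and 3, and 7.45% in replicate 2. Vehicle replicate 3 and calycosin plus LPS replicate 2 therefore stood apart from their groups, and counts of members called are given with and without them. Macrophage markers were present, 7 of 8 passing the filter on low counts, with a summed level of 4594 to 4999 CPM in vehicle, 4638 to 4830 CPM in LPS and 3380 to 3962 CPM in calycosin plus LPS cells. Of 22 markers of other cell types 10 had 0 counts in every library, and their sum was 0.576 to 1.22 CPM in vehicle, 4.16 to 6.24 CPM in LPS and 0.971 to 1.33 CPM in calycosin plus LPS cells, nearly all of the LPS value being the endothelial marker Cdh5. The part of these shifts in the results was not tested.

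On the length-corrected TPM scale, which allows genes to be set side by side, the members spanned a wide range. Npm1, which encodes nucleophosmin, the abundant histone and rRNA chaperone of the nucleolus, had the highest mean over the 9 libraries at 1525 TPM, and Ncl (nucleolin) followed at 219 TPM. The leading member of each other role was Fbl at 135 TPM for box C/D snoRNPs, Mybbp1a at 121 TPM for RNA polymerase I, Wdr43 at 108 TPM for the 40S pathway, Nhp2 at 108 TPM for box H/ACA snoRNPs and Gnl3 at 89.2 TPM for the 60S pathway. Rrp12, a factor of 40S export, was lowest at 0.923 TPM, and its 41 to 143 counts per library made it one of the least precisely measured members. The 34 genes together took 0.650%, 0.644% and 0.580% of the counts in vehicle libraries, 0.380%, 0.399% and 0.490% in LPS libraries and 0.498%, 0.489% and 0.458% in calycosin plus LPS libraries, so that all 6 LPS-exposed libraries lay below all vehicle libraries on this unscaled measure. After TMM scaling, and with Ncl and Npm1, the members of highest mean TPM, set aside, the sum was 3030, 3022 and 3067 CPM in vehicle, 2621, 2683 and 2953 CPM in LPS, and 2597, 2496 and 2577 CPM in calycosin plus LPS libraries. In both forms the vehicle libraries were the highest, and within the LPS group replicate 3 lay nearest to them. The groups overlapped when Ncl and Npm1 were kept in the TMM-scaled sum (4541 to 5520 CPM in vehicle, 4812 to 6024 CPM in LPS), and on the TPM scale the calycosin plus LPS sums (2924 to 3766 TPM) reached into those of vehicle (3538 to 5074 TPM) while the LPS sums (2561 to 3377 TPM) did not.

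**Figure D1:**
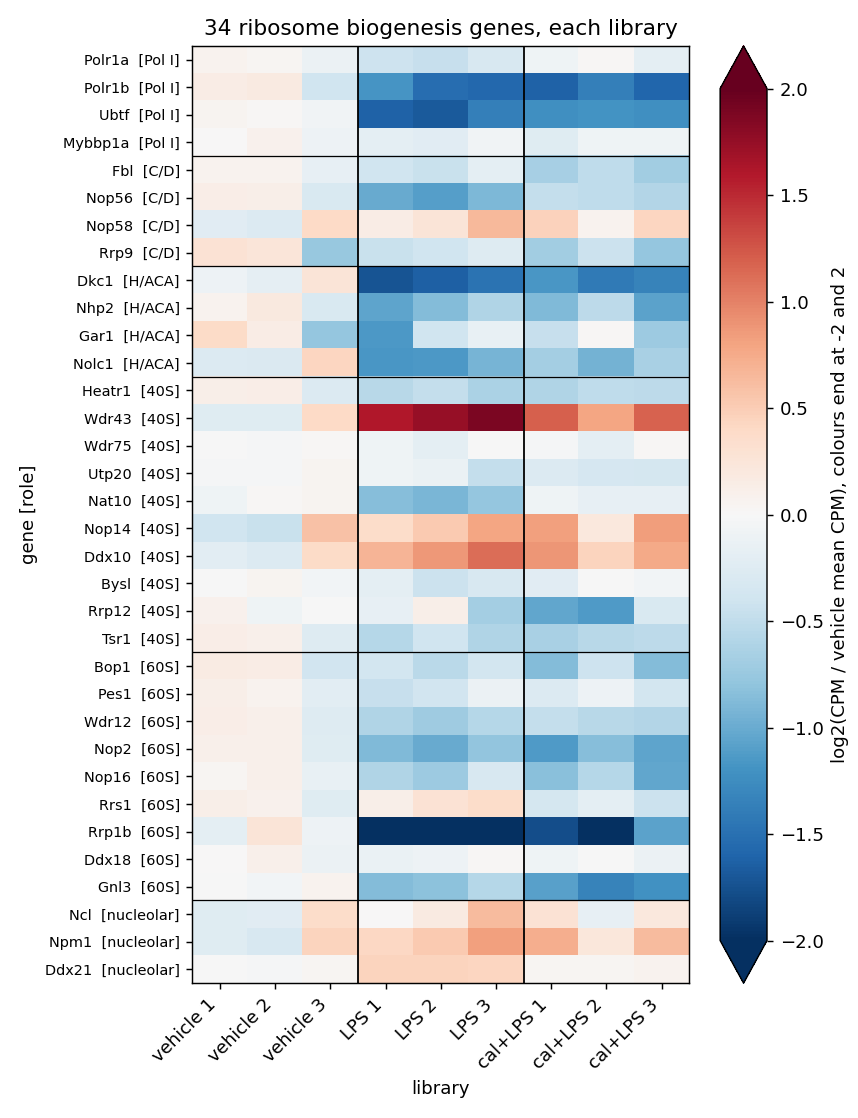
Level of each of the 34 genes (vertical axis, grouped by role) in each of the 9 libraries (horizontal axis), coloured by the log2 ratio of its CPM to the vehicle mean, with colours ending at -2 and 2. Ubtf, Dkc1, Polr1b and Rrp1b are blue in all LPS-exposed libraries and Wdr43 is red, while vehicle replicate 3 differs from the other two vehicle libraries in both directions.

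The first comparison asked what LPS did to these genes. More of them fell than rose: 17 of 34 were lower, 3 were higher and 14 did not pass the test (edgeR quasi-likelihood test, Benjamini-Hochberg adjusted p under 0.05). Among all 14458 genes tested, 28.9% were lower and 27.3% were higher. The RNA polymerase I factor Ubtf fell 2.93-fold, the pseudouridine synthase Dkc1 fell 3.05-fold and the methylation scaffold Nop56 fell 2.00-fold, whereas the 40S factor Wdr43 rose 3.35-fold. The median log2 fold change of the members was -0.39, against -0.07 over all genes tested. All 3 LPS libraries lay below all 3 vehicle libraries for 18 members and above them for 4, where 31.3% and 29.5% of all genes did so. In bulk RNA a change in the kind of cells present and a change in RNA per cell cannot be told apart, and p-values here measure the spread between cultures as labelled, with no single gene able to reach an exact permutation p below 0.1 at 3 against 3. Without vehicle replicate 3 and calycosin plus LPS replicate 2, 22 members were lower and 7 higher, where 5239 and 4600 of all genes were. The 6 libraries of high mitochondrial share hold only 1 vehicle library, replicate 3. The spread within vehicle is not measured there, so only effect sizes against vehicle are given for them. In these 6 libraries the median log2 fold change of the members with LPS was -0.25, against -0.02 over all genes. On the TPM scale 25 members were lower and 1 higher, where 6962 and 1476 of all genes were with a pseudocount of 1. In the main fit 4180 of all genes were lower and 3954 higher.

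**Figure D2:**
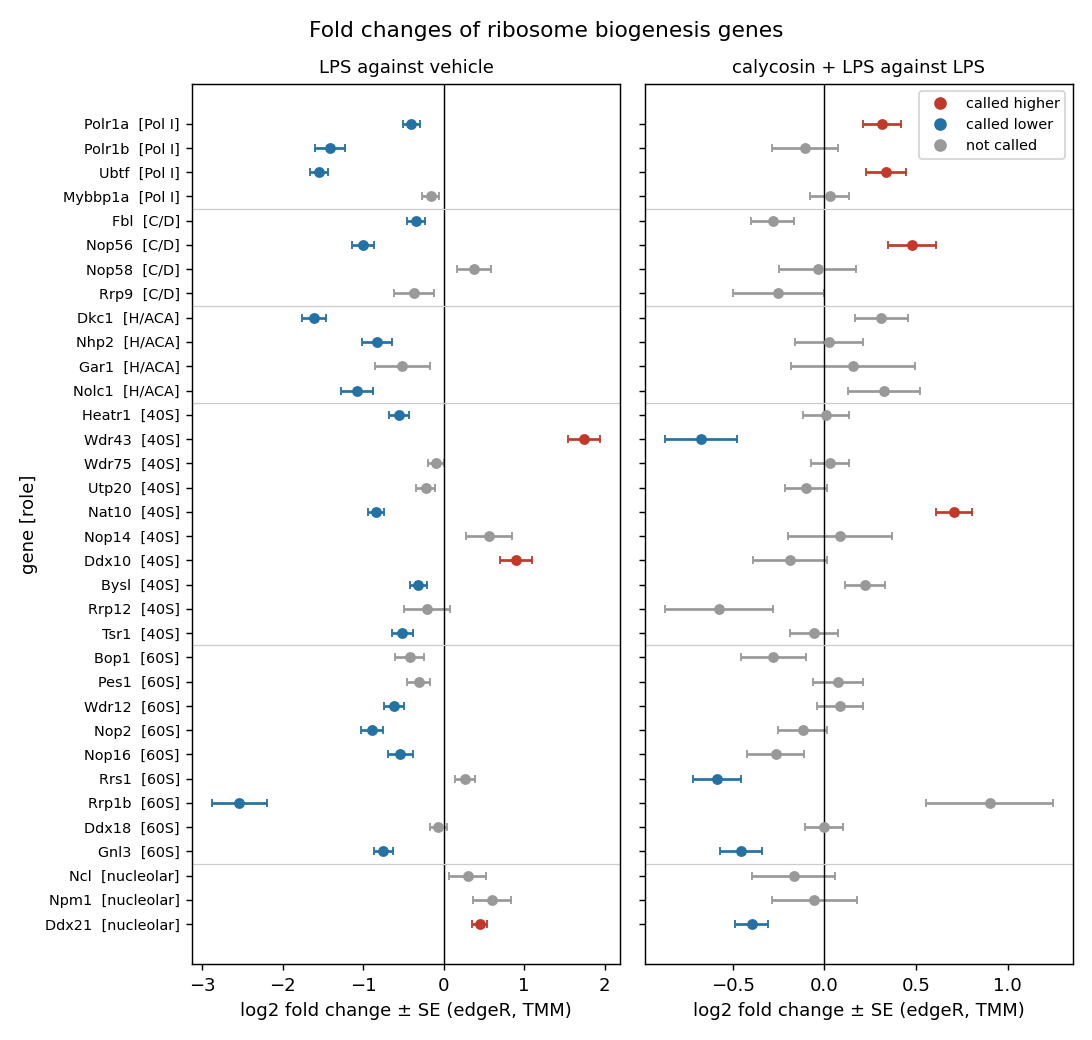
Log2 fold change of each of the 34 genes (vertical axis, grouped by role) with its SE, for LPS against vehicle on the left and calycosin plus LPS against LPS on the right, on axes of different range; red and blue points passed the test and grey points did not. With LPS 17 genes are blue and 3 red; with calycosin 4 are red and 4 blue, and on the TPM scale the red LPS point of Ddx21 turns negative without passing the test.

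Of the 4 members that work with RNA polymerase I, 3 fell with LPS. Ubtf, the factor UBF that binds and opens the ribosomal RNA genes (chr11:102304560-102319742, GRCm38), stood at 124, 121 and 113 CPM in vehicle, 39.0, 37.2 and 46.2 CPM in LPS and 51.0, 52.0 and 51.4 CPM in calycosin plus LPS libraries. The groups of LPS-exposed libraries did not overlap with vehicle, and the fall with LPS was 1.55 on the log2 scale (SE 0.11, edgeR adjusted p = 2.14e-06). Polr1b, the second largest subunit of the polymerase (chr2:129100995-129126594), was at 38.0, 38.9 and 26.2 CPM in vehicle, 15.1, 12.02 and 11.6 CPM in LPS and 11.2, 13.4 and 11.4 CPM in calycosin plus LPS libraries. It fell by 1.41 on the log2 scale with LPS (SE 0.18, edgeR adjusted p = 1.27e-04), a larger step than that of the largest subunit, Polr1a, whose log2 fold change was -0.40 (SE 0.10, edgeR adjusted p = 0.00849). The Polr1a call did not survive a GC offset (-0.21, edgeR adjusted p = 0.051). Its change was -0.31 in the 6 libraries of high mitochondrial share. Mybbp1a, a nucleolar protein that binds the polymerase machinery and MYB (chr11:72441355-72451768), was at 278, 292 and 257 CPM in vehicle, 240.1, 237 and 263 CPM in LPS and 234, 260.2 and 259.9 CPM in calycosin plus LPS libraries. Its groups overlapped, and it passed no test in the main fit. Without vehicle replicate 3 it passed as lower with LPS (-0.27, edgeR adjusted p = 0.033). The same held with upper-quartile factors (-0.37, edgeR adjusted p = 0.015) and on the TPM scale with a pseudocount of 1 (-1.09, limma adjusted p = 0.0152).

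The snoRNP proteins did not move as a unit. Of the box C/D members, Nop56, a core scaffold protein (chr2:130274430-130279313), was at 113, 112 and 83.9 CPM in vehicle, 51.4, 47.9 and 55.3 CPM in LPS and 74.4, 72.6 and 68.6 CPM in calycosin plus LPS libraries. These 3 groups do not overlap at all, and the fall with LPS was 1.00 on the log2 scale (SE 0.13, edgeR adjusted p = 1.51e-04). Fbl, fibrillarin, the methyltransferase of the same particle (chr7:28169710-28179269), was at 111, 111 and 94.5 CPM in vehicle, 79.7, 77.2 and 92.4 CPM in LPS and 66.6, 73.7 and 64.8 CPM in calycosin plus LPS libraries. Its LPS change was small, -0.34 (SE 0.12, edgeR adjusted p = 0.030), and was lost when any of 5 single libraries was left out (vehicle 1 or 2, LPS 1 or 2, calycosin plus LPS 1; adjusted p up to 0.116). It was also lost with the GC correction (-0.10, edgeR adjusted p = 0.394) and in the fit of these 2 groups alone (edgeR adjusted p = 0.0599). The Fbl change was -0.21 in the libraries of high mitochondrial share. Nop58, the paralogue that pairs with Nop56, and Rrp9, which is specific to the U3 particle, had log2 fold changes of 0.37 and -0.37 and did not pass, although without vehicle replicate 3 both did (0.56, edgeR adjusted p = 0.0168, and -0.70, edgeR adjusted p = 0.00104).

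Of the box H/ACA members 3 of 4 fell. Dkc1, dyskerin, the pseudouridine synthase (chrX:75095854-75109777), was at 73.9, 70.2 and 94.9 CPM in vehicle, 24.0, 25.7 and 28.6 CPM in LPS and 35.7, 29.7 and 31.6 CPM in calycosin plus LPS libraries. The highest LPS-exposed library was below the lowest vehicle library by a wide margin, and the LPS fall of 1.61 on the log2 scale (SE 0.15) had an edgeR adjusted p of 1.16e-05. Nolc1, the Nopp140 chaperone of snoRNPs (chr19:46075863-46085530), was at 208, 204 and 339 CPM in vehicle, 112, 113 and 131 CPM in LPS and 156, 130.1 and 159 CPM in calycosin plus LPS libraries. It fell 2.11-fold with LPS (edgeR adjusted p = 0.00121), with vehicle replicate 3 far above the other two. Nhp2, a core RNA-binding subunit (chr11:51619735-51623714), was at 83.7, 90.9 and 64.4 CPM in vehicle, 38.2, 43.8 and 52.3 CPM in LPS and 43.0, 55.6 and 38.0 CPM in calycosin plus LPS libraries. LPS and vehicle libraries did not overlap and the fall was 1.78-fold (edgeR adjusted p = 0.00406), whereas the partner Gar1 (log2 fold change -0.51, SE 0.34) passed only without vehicle replicate 3 (-0.84, edgeR adjusted p = 0.027) or without that library and calycosin plus LPS replicate 2.

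The 10 members of the 40S pathway went both ways, with 4 lower and 2 higher. Wdr43, which is UTP5 of the processome (chr17:71615895-71659031), was at 93.6, 93.2 and 146 CPM in vehicle, 336, 369 and 408 CPM in LPS and 255, 191 and 252 CPM in calycosin plus LPS libraries. It had the largest rise of the 34, 1.74 on the log2 scale (SE 0.20, edgeR adjusted p = 5.51e-05), and it kept its call in all 22 alternative analyses. Ddx10, an RNA helicase whose yeast counterpart frees snoRNA from the precursor (chr9:53098635-53248053), was at 44.9, 42.9 and 67.5 CPM in vehicle, 82.5, 94.0 and 113 CPM in LPS and 95.6, 70.6 and 87.9 CPM in calycosin plus LPS libraries. It rose 1.86-fold (edgeR adjusted p = 0.00395), a call that was lost on the TPM scale and when only the 6 libraries of high mitochondrial share were used (adjusted p up to 0.56). Nat10, which acetylates cytidines of small-subunit ribosomal RNA, fell 1.80-fold (edgeR adjusted p = 5.96e-05). Heatr1 and Tsr1 fell by 0.55 and 0.52 on the log2 scale (edgeR adjusted p = 0.00408 and 0.0073). Their log2 fold changes were -0.30 and -0.28 in the libraries of high mitochondrial share. Bysl, a 40S release factor, had a change of -0.31 that 5 single libraries could undo (vehicle 1 or 2, LPS 2 or 3, calycosin plus LPS 3; edgeR adjusted p up to 0.132) and that vanished with a correction for GC content (0.01 on the log2 scale, edgeR adjusted p = 0.945). Wdr75, which sits beside Wdr43 in the same subcomplex, was at 57.7 to 67.6 CPM over all 9 libraries, and Utp20, Nop14 and Rrp12 did not pass in the main fit. Wdr75 and Utp20 passed as lower with upper-quartile factors (-0.30 and -0.43, edgeR adjusted p = 0.0273 and 0.0109) and with the GC correction (-0.31 and -0.28, edgeR adjusted p = 0.0175 and 0.0499). On the TPM scale with a pseudocount of 1, Wdr75, Utp20 and Rrp12 passed as lower (-0.86, -0.96 and -0.52, limma adjusted p up to 0.0186). Nop14, another processome protein, passed as higher without vehicle replicate 3 (0.94, edgeR adjusted p = 0.00249) and in a fit with mitochondrial share as a term (0.43, edgeR adjusted p = 0.0103).

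In the 60S pathway 5 of 9 fell and none rose in the main fit, though Rrs1 rose in some alternatives. Rrp1b, a nucleolar regulatory protein (chr17:32036100-32062865), had the largest fall of the 34, from 4.48, 6.09 and 4.78 CPM in vehicle to 0.774, 1.11 and 0.748 CPM in LPS and 1.503, 1.03 and 2.43 CPM in calycosin plus LPS libraries. It was scarce, with 17, 27 and 18 counts in the LPS libraries, and the 5.81-fold LPS fall had an edgeR adjusted p of 1.65e-04. Gnl3, nucleostemin, a GTP-binding protein of the nucleolus (chr14:31012433-31019152), was at 130.4, 126 and 138 CPM in vehicle, 72.3, 74.1 and 88.3 CPM in LPS and 62.1, 52.2 and 56.9 CPM in calycosin plus LPS libraries, a fall of 1.68-fold with LPS (edgeR adjusted p = 4.31e-04). Nop2, a methyltransferase of large-subunit ribosomal RNA, fell 1.86-fold (edgeR adjusted p = 3.34e-04). The Pes1, Bop1 and Wdr12 proteins form one complex, and only Wdr12 passed, with a log2 fold change of -0.62 (edgeR adjusted p = 0.00216) against -0.31 for Pes1 and -0.42 for Bop1, which both passed without vehicle replicate 3. Nop16 fell by 0.54 on the log2 scale (edgeR adjusted p = 0.0149), a call lost without LPS replicate 1 or 2 (edgeR adjusted p up to 0.0644). The Nop16 change was -0.41 in the libraries of high mitochondrial share. Rrs1 and Ddx18 did not pass in the main fit. Ddx18 passed as lower with upper-quartile factors (-0.28, edgeR adjusted p = 0.0472) and on the TPM scale with a pseudocount of 1 (-0.82, limma adjusted p = 0.0303). Rrs1 passed as higher with a GC correction (0.61, edgeR adjusted p = 4.76e-04) and with mitochondrial share as a term (0.35, edgeR adjusted p = 0.00269). Its log2 fold change was 0.48 in the libraries of high mitochondrial share.

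Of the abundant nucleolar proteins, Ddx21, a helicase that links polymerase I transcription to rRNA processing (chr10:62580251-62602281), had the tightest replicates. It was at 253, 249.5 and 261 CPM in vehicle, 349, 348 and 344 CPM in LPS and 262, 263 and 266 CPM in calycosin plus LPS libraries. Only the LPS libraries stood out on this scale, with a log2 fold change of 0.44 (SE 0.09, edgeR adjusted p = 0.00224), but on the TPM scale the sign turned, to -0.35 (limma adjusted p = 0.219). The TPM scale moved the median of all genes with LPS to -0.61, where TMM left it at -0.07. Npm1 (chr11:33152287-33163206) was at 846, 803 and 1369 CPM in vehicle, 1347, 1450.0 and 1775 CPM in LPS and 1668, 1176 and 1559 CPM in calycosin plus LPS libraries, so that vehicle replicate 3 reached the LPS range. Its log2 fold change of 0.60 missed the threshold (edgeR adjusted p = 0.0514) and passed without vehicle replicate 3 (0.83, edgeR adjusted p = 0.00259). The treatment of reads that map to several places is not given in the sources used here, and Npm1 is known to have processed pseudogenes. Ncl had a log2 fold change of 0.30 (edgeR adjusted p = 0.288) and one of -0.55 on the TPM scale (limma adjusted p = 0.0464), so no direction can be given for it.

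The second comparison asked what calycosin pretreatment changed in cells that received LPS. Of 34 members 4 were higher and 4 lower, near the shares of all genes tested, 16.1% higher and 12.9% lower by the same test. The acetyltransferase Nat10 rose 1.64-fold, Nop56 rose 1.39-fold, and Ubtf and Polr1a rose 1.26-fold and 1.24-fold. Wdr43 fell 1.59-fold, the 60S factor Rrs1 fell 1.501-fold, and Gnl3 and Ddx21 fell 1.37-fold and 1.31-fold. The median log2 fold change of the members was -0.02, against 0.02 for all genes. The calycosin plus LPS libraries lay wholly above the LPS libraries for 5 members and wholly below for 5, where 26.3% and 23.4% of all genes did so. Without vehicle replicate 3 and calycosin plus LPS replicate 2, 7 members were higher and 7 lower, where 3063 and 2670 of all genes were. On the TPM scale 3 members were higher (Nat10, Dkc1 and Nolc1) and 0 lower, where 1423 and 335 of all genes were with a pseudocount of 1. Of the 4 members higher under TMM, only Nat10 was thus called on the TPM scale.

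**Figure D3:**
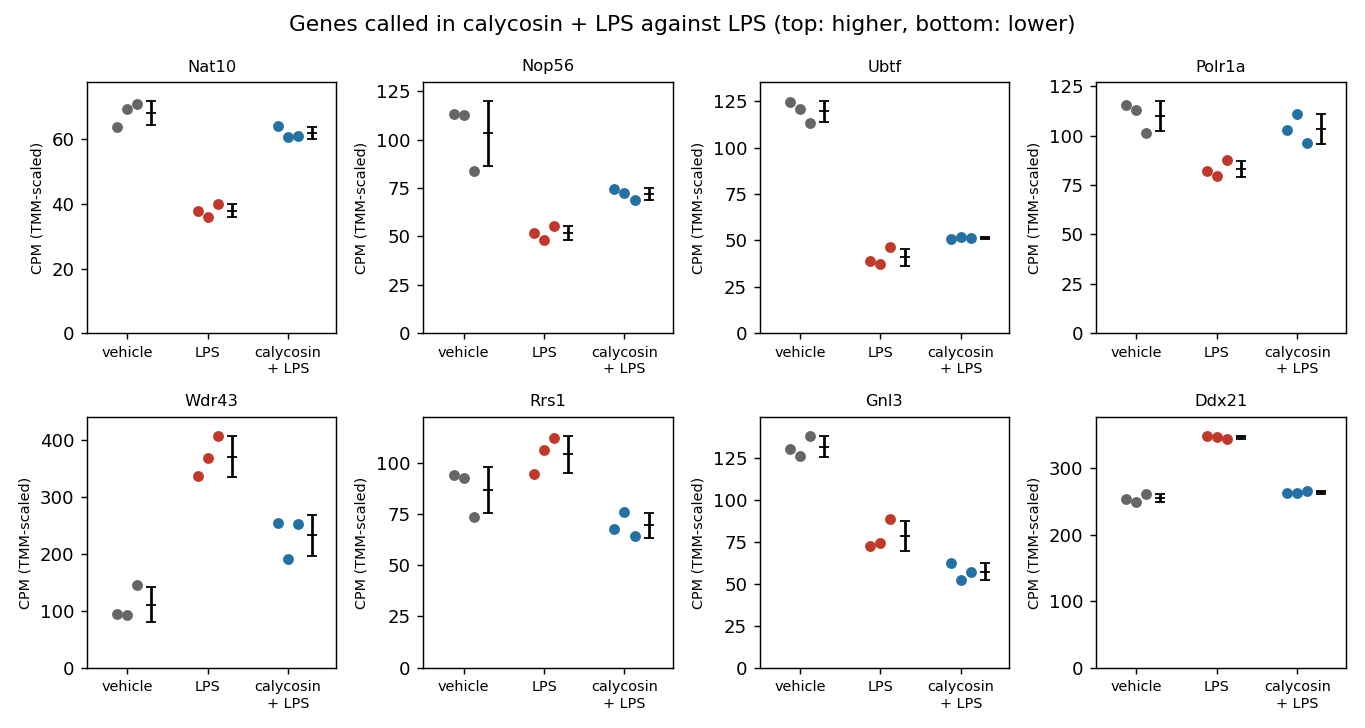
CPM on TMM-scaled library sizes (vertical axes, from 0) of the 8 genes that passed the test between calycosin plus LPS and LPS, with 1 point per library and the mean ± SD of 3 libraries beside each group. Nat10 lies at 36.0 to 40.1 CPM in LPS and 60.7 to 64.3 CPM in calycosin plus LPS libraries, and Ddx21, whose LPS rise turns negative on the TPM scale, lies at 262 to 266 CPM with calycosin and 249.5 to 261 CPM in vehicle.

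Nat10 (chr2:103721256-103761270) gave the firmest of these differences. It was at 64.0, 69.5 and 71.1 CPM in vehicle, 37.7, 36.0 and 40.1 CPM in LPS and 64.3, 60.7 and 61.2 CPM in calycosin plus LPS libraries. The LPS libraries were below both other groups without overlap, and the calycosin difference of 0.71 on the log2 scale (SE 0.10, edgeR adjusted p = 8.47e-04) kept its call in all 22 alternatives (adjusted p up to 0.0479). Calycosin plus LPS and vehicle libraries overlapped for Nat10, with a log2 fold change of -0.14 (SE 0.10, edgeR adjusted p = 0.27). On the TPM scale vehicle replicates 1 and 2 were at 68.9 and 72.1 TPM, above the 28.6 to 42.7 TPM of the calycosin plus LPS libraries, and vehicle replicate 3 was within that range at 32.1 TPM. The LPS libraries, at 13.7 to 18.2 TPM, were below all of these.

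The other 3 members that rose with calycosin had also fallen with LPS, and since the LPS libraries enter both comparisons the values are given side by side without a test of the link. Polr1a (chr6:71909053-71984935), was at 116, 113 and 101 CPM in vehicle, 82.2, 79.8 and 87.8 CPM in LPS and 103, 111 and 96.2 CPM in calycosin plus LPS libraries. Its rise of 0.31 on the log2 scale (edgeR adjusted p = 0.0475) was lost when any of 8 of the 9 libraries was left out (all but vehicle 3; adjusted p up to 0.147), and the rise of Ubtf, 0.34 (edgeR adjusted p = 0.0434), was lost for 7 (all but vehicle 3 and LPS 3; up to 0.153). Nop56 rose by 0.48 (SE 0.13, edgeR adjusted p = 0.0233), lost without LPS 1, LPS 2, calycosin plus LPS 1 or calycosin plus LPS 2 (adjusted p up to 0.086). All 3 calls were also lost on the TPM scale (limma adjusted p up to 0.341). Those of Polr1a and Ubtf were lost as well with RLE scaling factors and without the filter on low counts (edgeR adjusted p up to 0.0843). With calycosin Ubtf and Nop56 were still lower than in vehicle, with log2 fold changes of -1.22 and -0.52 (edgeR adjusted p = 1.72e-05 and 0.00912). For Nop56 the change against vehicle was -0.23 in the libraries of high mitochondrial share. Polr1a overlapped with vehicle (-0.09, edgeR adjusted p = 0.508).

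Of the members lower with calycosin, Rrs1, which helps bring the 5S particle into the 60S precursor (chr1:9545408-9547455), was at 94.0, 92.3 and 73.6 CPM in vehicle, 94.2, 106 and 112 CPM in LPS and 67.9, 75.9 and 64.4 CPM in calycosin plus LPS libraries. It fell by 0.59 on the log2 scale (SE 0.13, edgeR adjusted p = 0.00858), a call that held without any single library and was lost on the TPM scale (limma adjusted p up to 0.646). Ddx21 fell by 0.39 (SE 0.09, edgeR adjusted p = 0.01), also held without any single library, and was lost on the TPM scale and without the filter on low counts (adjusted p up to 0.874). Wdr43 fell by 0.67 (SE 0.19, edgeR adjusted p = 0.0279), but its call was lost without any one of the 6 LPS-exposed libraries (adjusted p up to 0.0989). The Wdr43 call was also lost on the TPM scale (limma adjusted p up to 0.217). Gnl3 fell by 0.45 (SE 0.12, edgeR adjusted p = 0.0168), lost without LPS 3, calycosin plus LPS 2 or calycosin plus LPS 3 (up to 0.0659). Its call was lost too on the TPM scale and without the filter on low counts (adjusted p up to 0.772). Gnl3 was the member that was lower with LPS and lower again with calycosin, a pattern no other of the 34 showed in the main fit. The H/ACA members all lacked a call here, with log2 fold changes from 0.03 to 0.32. Dkc1 and Nolc1 passed as higher without vehicle replicate 3 (0.33 and 0.34, edgeR adjusted p = 0.0404 and 0.0315). They also passed with mitochondrial share as a term (edgeR adjusted p = 0.0334 and 0.0209) and on the TPM scale (limma adjusted p up to 0.0455). The same held in the libraries of high mitochondrial share and without vehicle 3 and calycosin plus LPS 2.

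The third comparison set calycosin plus LPS cells against vehicle. The members remained mostly on the low side, 17 of 34 lower and 2 higher, where 23.6% of all genes were lower and 25.4% higher. The 2 that were higher were Wdr43 (1.07 on the log2 scale, edgeR adjusted p = 0.00164) and Ddx10 (0.71, edgeR adjusted p = 0.0155, lost without vehicle 1, vehicle 2 or calycosin plus LPS 1). Polr1b fell 2.86-fold, Dkc1 2.46-fold, Gnl3 2.30-fold and Nop2 2.01-fold. The median log2 fold change of the members was -0.44, and over all genes it was below 0.01 in size. The libraries were fully separated for 17 members below vehicle and 3 above, where 27.1% and 29.1% of all genes were. Without vehicle replicate 3 and calycosin plus LPS replicate 2, 21 members were lower and 5 higher, where 4404 and 4516 of all genes were. In the libraries of high mitochondrial share, with only vehicle replicate 3, the median log2 fold change was -0.21 for the members and 0.0085 over all genes.

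Across the 3 comparisons, 11 members were lower with LPS, not called between the LPS groups, and lower in calycosin plus LPS than in vehicle: Polr1b, Fbl, Dkc1, Nhp2, Nolc1, Heatr1, Tsr1, Wdr12, Nop2, Nop16 and Rrp1b. The members Polr1a and Nat10 were lower with LPS, higher with calycosin and not called against vehicle, and Ddx21 had the mirror pattern on the TMM scale. Fbl and Dkc1 had no call between the LPS groups, with log2 fold changes of -0.28 (edgeR adjusted p = 0.0992) and 0.31 (edgeR adjusted p = 0.136), although neither gene's libraries overlapped. Among the alternatives, Fbl passed as lower with a GC correction (-0.35, edgeR adjusted p = 0.0174) and with DESeq2 (-0.33, DESeq2 adjusted p = 0.0321). Fbl also passed with mitochondrial share as a term (-0.27, edgeR adjusted p = 0.0147) and without vehicle 3 and calycosin plus LPS 2 (-0.32, edgeR adjusted p = 0.03). Dkc1 and Nolc1 passed as higher without vehicle 3. Utp20, Rrp12 and Bop1 were called only against vehicle in calycosin plus LPS cells, and the calls of Utp20 (edgeR adjusted p = 0.0443) and Rrp12 (edgeR adjusted p = 0.0472) were each lost when any one of 7 libraries was left out. These were all but vehicle 3 and LPS 3 for Utp20, and all but LPS 3 and calycosin plus LPS 3 for Rrp12. In the main fit no call was made in any comparison for 10 members: Mybbp1a, Nop58, Rrp9, Gar1, Wdr75, Nop14, Pes1, Ddx18, Ncl and Npm1.

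Ratios of counts between partners inside a library do not depend on how libraries are scaled, and 13 were computed for proteins that share a complex or a family. They were chosen with the results known and are given without a test. The Fbl to Nop56 ratio was 0.979, 0.986 and 1.13 in vehicle, 1.55, 1.61 and 1.67 in LPS and 0.894, 1.02 and 0.945 in calycosin plus LPS libraries. The methyltransferase and its scaffold thus stood near equal counts in vehicle and calycosin plus LPS libraries and apart in LPS libraries, and on the TPM scale the LPS ratios (1.45 to 2.54) were again above those of the calycosin plus LPS (1.185 to 1.303) and vehicle (0.946 to 1.19) libraries. The Wdr43 to Wdr75 ratio was 1.42, 1.42 and 2.17 in vehicle, 5.37, 6.40 and 6.19 in LPS and 3.92, 3.31 and 3.73 in calycosin plus LPS libraries, 3 groups that do not overlap. The Ddx21 to Ddx18 ratio of 2 DEAD-box helicases was 3.68, 3.40 and 4.15 in vehicle, 5.58, 5.47 and 4.92 in LPS and 4.06, 3.84 and 4.24 in calycosin plus LPS libraries, so that LPS stood above both others. This ratio shows unequal change of the pair and not which gene moved, and it kept the same order on the TPM scale.

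**Figure D4:**
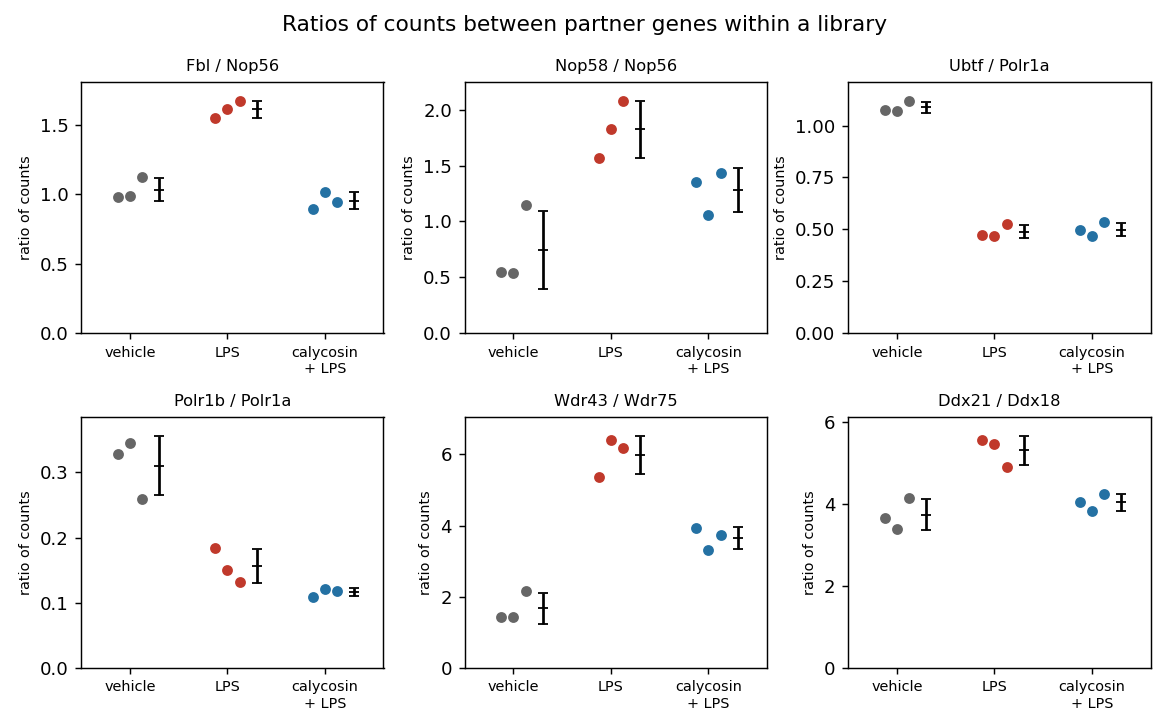
Ratio of counts of partner genes within each library (vertical axes, from 0), with 1 point per library and the mean ± SD of 3 libraries beside each group. Fbl / Nop56, Wdr43 / Wdr75 and Ddx21 / Ddx18 are higher in all LPS libraries than in all others, and Ubtf / Polr1a is 0.466 to 0.534 in the LPS-exposed libraries and 1.07 to 1.12 in vehicle libraries.

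For the polymerase I genes the ratio of Ubtf to Polr1a was 1.076, 1.072 and 1.12 in vehicle, 0.475, 0.466 and 0.526 in LPS and 0.495, 0.468 and 0.534 in calycosin plus LPS libraries. LPS and calycosin plus LPS libraries overlapped in this ratio, although both genes passed the test between those groups. The 2 largest subunits also parted, with a Polr1b to Polr1a ratio of 0.328, 0.345 and 0.259 in vehicle, 0.184, 0.151 and 0.133 in LPS and 0.109, 0.120 and 0.119 in calycosin plus LPS libraries. On counts the calycosin plus LPS ratios were the lowest, but on TPM they were 0.270 to 0.359 and overlapped with LPS at 0.249 to 0.496, so only the gap to vehicle (0.600 to 0.769 on TPM) held on both scales. The Gnl3 to Pes1 ratio was 0.875, 0.865 and 1.16 in vehicle, 0.723, 0.703 and 0.691 in LPS and 0.542, 0.405 and 0.530 in calycosin plus LPS libraries. These 3 groups did not overlap on counts or on TPM.

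The rest of the pathway gave a point of comparison. From a list of 146 other ribosome biogenesis genes, 145 were found and tested, and with LPS 42 were higher and 41 lower, with a median log2 fold change of 0.04. The calls of the wider list were even in direction under TMM, but they were 28 higher and 61 lower with upper-quartile factors, 5 higher and 75 lower on the TPM scale, and 50 higher and 54 lower without vehicle replicate 3 and calycosin plus LPS replicate 2. No test was made between this list and the 34 members. The other 60S genes split 16 higher and 15 lower of 56, the other small subunit genes 17 and 12 of 47, the exosome and trimming genes 4 and 7 of 17, the other polymerase I genes 4 and 4 of 13, and the snoRNP assembly genes 1 and 3 of 12. With calycosin 8 of the 145 were higher and 16 lower than with LPS alone, 8 of the lower ones among the small subunit genes. The higher count was 17 without vehicle 3, the lower count was 10 without LPS 1 or without calycosin plus LPS 1, and without the 2 libraries that stand apart they were 16 and 23. In a fit with mitochondrial share as a term 23 were higher and 30 lower, and on the TPM scale 2 or 4 were higher, depending on the pseudocount, and 0 lower. Between calycosin plus LPS and vehicle 34 were higher and 29 lower, against 48 and 42 without the 2 libraries that stand apart and 2 higher with 25 or 26 lower on the TPM scale. The higher count was 18 to 21 without vehicle 1, vehicle 2, calycosin plus LPS 1 or calycosin plus LPS 3, and the lower count was 19 without calycosin plus LPS 1.

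Among these genes Nol10, a processome protein, rose from 38.8 ± 3.08 CPM in vehicle to 145 ± 9.60 CPM in LPS and was at 82.6 ± 4.76 CPM in calycosin plus LPS cells (SD, n = 3). That was a 3.75-fold rise with LPS (edgeR adjusted p = 4.81e-07) and a 1.76-fold fall with calycosin (edgeR adjusted p = 6.40e-04). Xrn2, the exonuclease that trims rRNA precursors, rose 3.55-fold (edgeR adjusted p = 4.09e-06) and fell 1.83-fold (edgeR adjusted p = 0.00183). Dcaf13, a processome protein, was at 47.1 ± 0.541 CPM in vehicle, 89.2 ± 9.24 CPM in LPS and 49.3 ± 0.572 CPM in calycosin plus LPS cells (SD, n = 3), and fell by 0.86 on the log2 scale with calycosin (edgeR adjusted p = 4.53e-04). Ltv1, a 40S export factor, rose 2.59-fold with LPS (edgeR adjusted p = 5.72e-05). In the other direction Polr1g, a polymerase I subunit that the count table lists as Cd3eap, fell by 2.00 on the log2 scale with LPS (edgeR adjusted p = 1.13e-05), from 30.1 ± 0.364 to 7.52 ± 1.56 CPM (SD, n = 3). Imp3, which binds the U3 particle, fell 3.81-fold (edgeR adjusted p = 1.56e-04). The exosome gene Exosc6 was called lower with LPS (edgeR adjusted p = 0.0428) on uneven libraries, with 2, 379 and 242 counts in vehicle and 1, 15 and 14 counts in LPS, and the call was lost without any one library other than vehicle 1 and calycosin plus LPS 2 (adjusted p up to 0.125). Among the other pathway genes that passed the test, the 3 with the largest rises under calycosin were Coil, the Cajal body protein coilin (1.89-fold, edgeR adjusted p = 0.0098), Gtf3a, the 5S rRNA gene factor (1.65-fold, edgeR adjusted p = 0.00296) and Nvl, an ATPase of 60S assembly (1.63-fold, edgeR adjusted p = 0.00309). On the TPM scale the calycosin calls of Nol10, Xrn2, Dcaf13 and Coil were lost (limma adjusted p up to 0.207).

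The MYC family, known to control this pathway, changed in opposite directions with LPS. Myc was nearly silent in vehicle, with 8, 3 and 17 counts, and had 325, 352 and 404 counts in LPS libraries and 368, 362 and 468 in calycosin plus LPS libraries. Its level rose from 0.246 ± 0.239 to 15.3 ± 1.26 CPM with LPS (SD, n = 3; edgeR adjusted p = 5.81e-06) and was 11.7 ± 3.34 CPM with calycosin. Mycn, its paralogue, was at 526, 318 and 395 CPM in vehicle and fell to 133, 135 and 149 CPM in LPS and 91.2, 103 and 77.2 CPM in calycosin plus LPS libraries. The LPS fall was 2.96-fold (edgeR adjusted p = 7.45e-05), and the further calycosin fall of 0.62 on the log2 scale (edgeR adjusted p = 0.0311) was lost without LPS 1, 2 or 3 or calycosin plus LPS 1 or 3 (adjusted p up to 0.114). The Mycn call with calycosin was also lost without the filter on low counts and on the TPM scale (adjusted p up to 0.582). Max, the partner that MYC proteins need to bind DNA, rose 4.05-fold with LPS (edgeR adjusted p = 2.84e-05) and fell 2.20-fold with calycosin (edgeR adjusted p = 0.00315).

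The DNA element that MYC and MAX bind, the E-box CACGTG (its own reverse complement, so 1 search covers both strands), was looked for in RefSeq windows from 250 bases before to 50 bases after each start site on GRCm38.p6. Of the 29 members with a window 6 held it (20.7%), as did 2187 of all 27025 genes with a window (8.1%). The sites are shown with 30 bases each, 5′ to 3′ on the strand of the gene and with the E-box in capitals, because they let the reader see which members carry it and where. Their positions are chr6:125131811-125131840 for Nop2, chr10:88826765-88826794 for Utp20, chr11:3963965-3963994 for Pes1, chr11:72441347-72441376 for Mybbp1a, chr11:74898092-74898121 for Tsr1 and chr17:71616220-71616249 for Wdr43. Utp20 is on the minus strand and the others are on the plus strand.
Nop2: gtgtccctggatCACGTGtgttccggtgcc
Utp20: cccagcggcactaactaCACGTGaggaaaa
Pes1: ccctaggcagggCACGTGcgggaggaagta
Mybbp1a: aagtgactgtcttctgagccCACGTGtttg
Tsr1: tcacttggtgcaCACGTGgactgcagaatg
Wdr43: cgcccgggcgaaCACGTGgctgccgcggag
The first base of the hexamer lies at -60 from the RefSeq start site in Nop2 and at 3 to 41 bases into the transcript in the other 5.

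The members with an E-box did not share a response. With LPS Wdr43 was higher, Nop2 and Tsr1 were lower, and Utp20, Pes1 and Mybbp1a did not pass, with a median log2 fold change of -0.27 over the 6. The 23 members with a window and no E-box had 2 higher and 14 lower and a median of -0.54. Wdr43, the member with the largest rise, and Nop2, which fell 1.86-fold, thus carry the same hexamer. A match of letters is not evidence of binding, and nothing here measured it.

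Several members are also hosts of small nucleolar RNA genes, which lie in their introns and are cut out of the same transcript. By the GENCODE M21 annotation 7 of the 34 (20.6%) contain such a gene, against 259 of 21951 protein-coding genes (1.18%), and together they hold 21: 5 in Nop56, 4 in Nop58, 3 each in Wdr43, Gnl3 and Ncl, 2 in Tsr1 and 1 in Dkc1. With LPS 4 of these hosts fell (Nop56, Gnl3, Tsr1 and Dkc1) and 1 rose (Wdr43), with a median log2 fold change of -0.52, and the 27 other members had 13 lower, 2 higher and a median of -0.37. The small RNAs themselves are poorly captured by poly(A) selection and were not measured. The 34 genes lie on 15 chromosomes.

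The exons of 17 members overlap another annotated gene, on the opposite strand for 16 of them, and since strand use in the counting is not given in the sources used here, reads in the overlaps cannot be told apart. Nop56 overlaps Idh3b, which was at 104 ± 11.2, 102 ± 2.88 and 71.4 ± 2.51 CPM (SD, n = 3) in vehicle, LPS and calycosin plus LPS cells. Dkc1 overlaps Mpp1, which was at 96.7 ± 9.78, 196 ± 11.3 and 125 ± 6.02 CPM, and Gnl3 overlaps Pbrm1, which was at 96.4 ± 18.6, 132 ± 15.2 and 163 ± 15.0 CPM. Nhp2 overlaps Rmnd5b, which was at 23.0 ± 4.09, 14.9 ± 0.511 and 15.0 ± 2.22 CPM, and Bop1 overlaps Mroh1, which was at 205 ± 40.6, 119 ± 11.9 and 102.5 ± 15.7 CPM. The means of Rmnd5b and Mroh1 were lower with LPS, as were those of Nhp2 and Bop1, whereas those of Mpp1 and Pbrm1 were higher while those of Dkc1 and Gnl3 were lower. Heatr1 overlaps Lgals8, which was at 72.45 ± 2.265, 393.9 ± 53.83 and 289.2 ± 24.53 CPM. Rrp9 overlaps Parp3, which was at 11.93 ± 1.127, 58.55 ± 1.617 and 46.45 ± 6.39 CPM. Lgals8 and Parp3 were thus higher with LPS, where the log2 fold changes of Heatr1 and Rrp9 were -0.55 and -0.37. The part of overlap reads in the members' values was not tested. Nat10, Ubtf, Polr1b, Nolc1, Nop2, Ddx10 and Ddx21 overlap no other annotated exon.

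The spread among vehicle libraries bears on all of these values. The median coefficient of variation of the members was 14.3% in vehicle, 9.40% in LPS and 9.44% in calycosin plus LPS libraries. Vehicle replicate 3 differed from the mean of the other two by -1.05 (Gar1) to 1.02 (Nop14) on the log2 scale. Rrp9 was lower there by as much as Gar1, at -1.03, and Npm1, Nolc1, Nop58, Wdr43, Ddx10 and Ncl were higher by 0.61 to 0.73. These differences went with base composition: over the 34 members Pearson's r with transcript GC content was -0.64 (Spearman's rho -0.55), a description of genes measured in the same libraries. For the LPS fold change r was -0.37 (rho -0.35), and for calycosin plus LPS against LPS it was 0.06 (rho 0.03). The 8 members with a transcript GC content under 45% had a median LPS change of 0.33 with 2 higher and 2 lower, and the 10 members at 53% or more had a median of -0.40 with 4 lower. Dkc1, at 43.6% GC, and Ubtf, at 54.1%, fell by a like amount, and with a GC correction the gap between the median of the members and that of all genes with LPS shrank from -0.32 to -0.20.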

How the data were processed

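The authors deposited raw gene counts, whole numbers with no normalisation, for 51826 genes, and TPM values for 51799 genes. Per the submitters' processing notes, Trimmomatic 0.36, HISAT2 2.0, StringTie 1.3.3b and build mm10 were used; no read counter, annotation release or strand setting is given in the sources used here. Groups were read from the labels. The members and gene lists were chosen with earlier results of these data known. In R 4.3.3, edgeR 4.0.16 (filterByExpr, TMM, quasi-likelihood F test, two-sided) was fitted on all 9 libraries with a term per group, which left 14458 genes, and p was adjusted by Benjamini-Hochberg over them with a threshold of 0.05. The fit was tested on simulated data. The SE was derived from the test statistic. Depth was 27784737 to 38524105 counts, and 3 counts equal 0.0602 to 0.137 CPM.

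Values per library are given for the 5 called members with the largest changes in each direction in the first 2 comparisons and the most abundant member of each role, up to 4 others per role by fold change, and for the 3 other pathway genes with the largest called changes. Max, the overlapping genes and the partner ratios were named outside this rule, after values were seen. Alternatives were DESeq2 1.42.0, RLE and upper-quartile factors, removal of mitochondrial genes, no filter, leaving out libraries, a replicate block, mitochondrial and GC corrections, 2-group fits and limma 3.58.1 on log2(TPM + 1) and log2(TPM + 0.1). A restriction to the 6 libraries of high mitochondrial share was chosen after seeing the data. It leaves 1 vehicle library, replicate 3, so only effect sizes against vehicle are given for it. Positions are from GENCODE M21 (GRCm38) and promoter windows from RefSeq (GRCm38.p6), which matched 29 members. Protein sequences were not used here. Libraries of 1 group differed by more than sampling noise, so none was counted as a duplicate.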

Additional observations from a re-analysis of the deposited data

How the results depend on the processing

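The TMM values above are set against 22 other analyses. Leaving out 1 library at a time gave 3 to 6 members higher with LPS (3 with all libraries, 6 without vehicle 3) and 14 to 22 lower (17). Of all genes 3253 to 4451 were higher and 3605 to 5090 lower in these fits, both highest without vehicle 3. Between calycosin plus LPS and LPS it gave 1 to 6 higher (4) and 2 to 4 lower (4), where 1697 to 3164 and 1224 to 2576 of all genes were. Against vehicle it gave 1 to 5 higher (2) and 15 to 19 lower (17), where 2851 to 4376 and 2523 to 4337 of all genes were. Without vehicle 3 and calycosin plus LPS 2 together, 7 were higher with LPS, 7 higher and 7 lower with calycosin, and 5 higher against vehicle. Of all genes 4600, 3063 and 2670, and 4516 were. With the mitochondrial share as a covariate, 6 were higher with LPS and 4 higher against vehicle, where 4541 and 4333 of all genes were. On the TPM scale with either pseudocount, 1 was higher and 25 lower with LPS, 3 higher and 0 lower with calycosin, and 1 higher and 16 lower against vehicle. With a pseudocount of 1, 1500 of all genes were higher and 3707 lower against vehicle. With upper-quartile factors 23 were lower with LPS and 21 lower against vehicle, where 5373 and 4269 of all genes were. With RLE factors 2 were higher with calycosin, where 2110 of all genes were. Without a filter 2 were higher and 2 lower with calycosin, where 2185 and 1389 of all genes were. In the 6 libraries of high mitochondrial share 11 were lower with LPS, and 10 lower and 1 higher against vehicle. The cause of these shifts was not tested. The sign turned for Bysl with LPS under the GC correction (0.0089, edgeR adjusted p = 0.945), for Ncl on both TPM scales (-0.5475 and -0.5498, limma adjusted p = 0.0464 and 0.0497) and for Ddx21 (-0.3531 and -0.3557, limma adjusted p = 0.219 and 0.226).

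Of 102 member values, 94 kept direction and side of the threshold with DESeq2, 94 with RLE factors, 86 with upper-quartile factors, 77 with the GC correction and 63 with each TPM fit. Same-numbered libraries did not deviate together in every pair (correlations from -0.17 to 0.36). A pair with different numbers, vehicle 1 and calycosin plus LPS 2, also reached 0.36. These correlations therefore cannot decide whether the numbers pair the samples. A replicate block gave 5 higher and 15 lower with LPS, 2 higher and 4 lower with calycosin, and 4 higher and 15 lower against vehicle. Of all genes it called 3910 and 3930 with LPS, 2113 and 1701 with calycosin, and 3604 and 3163 against vehicle. Over all genes, the TPM fit with a pseudocount of 1 called 1476 higher and 6962 lower with LPS, against 3954 and 4180.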
